A study of Mus musculus with 5 samples.

Results

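Cytotoxic effector genes of lymphocytes, the genes of granzymes, perforin and the proteins made with them, were followed in immune cells of the atherosclerotic mouse aortic arch. The 10 genes, Gzma, Gzmb, Gzmk, Gzmm, Prf1, Nkg7, Ccl5, Ifng, Eomes and Fasl, were taken as a fixed list from 26189 gene columns, and all 10 were found in both deposited count tables. They were described over T cell subsets and natural killer (NK) cells, which were gated without any of the 10 genes, and between 2 pools of cells.

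Killer lymphocytes store granzymes, which are serine proteases, in granules together with perforin, a protein that opens the membrane of the target cell. A separate route uses Fas ligand on the killer cell and the receptor Fas on the target. The same cells release interferon gamma and the chemokine CCL5, and in the atherosclerotic aorta such cells lie beside macrophages that carry receptors for both.

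The cells came from female mice of 12 weeks that received a single AAV8 injection with a transgene behind the liver promoter hAAT and then ate Western diet for 18 weeks. The 2 pools shared this treatment and were told apart by sample tags in 1 cartridge run. The first pool is wild-type C57BL/6J. The second carries the Saa3tm1.1(KOMP)Vlcg allele (Saa3-/-) on C57BL/6N, so the genotype and the substrain change together, although the design text calls the animals littermates. The number of mice in each pool was not given, and only the names of the deposited tables tie a tag to a genotype.

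Of 889 and 854 deposited cells, 833 and 823 were kept, with a mean of 8751 and 6357 molecules (unique molecular identifiers) per cell. No cell index occurred in both pools. Saa3 itself went against the labels, with 1079 molecules (148 CPM, the sum scaled to 1000000 molecules over those cells) in the pool labelled wild-type and 1268 (242 CPM) in the pool labelled Saa3-/-. The pools are therefore called by their labels throughout, wild-type first. With 1 pool per label, no test was possible, no p-value is given, and all intervals (95%, exact Poisson for levels, exact binomial for shares) cover counting error only.

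T cells were cells with at least 2 molecules of the CD3 genes Cd3d, Cd3e and Cd3g, and NK cells those with at least 2 molecules of Ncr1, Klrb1c, Klre1, Klra4 and Klra8 and at most 1 CD3 molecule. Group 1 innate lymphoid cells carry the same NK markers and would fall into the same gate. The gates held 204 and 256 cells in all, 24.5% and 31.1% of the pools. There were 9 and 8 NK cells, 28 and 30 CD8 cells low in naive markers (fewer than 2 molecules of a marker list that includes Ccr7 and Lef1), 17 and 20 CD8 cells with naive markers, and 53 and 54 gamma-delta T cells, called by Trdc. The CD4 cells were 20 and 15 low in naive markers, 14 and 25 with naive markers, and 4 and 2 with Foxp3. A further 20 and 48 T cells held both Cd4 and CD8 transcripts, and 39 and 54 fell into no subset. These gates rest on few cells, above all the NK gate. In the pool labelled Saa3-/-, 2 of the 8 NK cells had just 2 marker molecules, held 25633 of the gate's 59267 molecules and had 1 molecule of the 10 genes between them. NK levels or ratios that turn on these 2 cells are therefore also given, for the 10 genes, with 3 marker molecules as the limit. That limit left 8 and 6 cells. NK values of other genes are given at 2 marker molecules alone.

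Checks of the gates against other markers came out unevenly. The NK gate held 132 and 114 molecules of its markers, with 3 and 2 CD3 molecules and 0 and 1 of Trac, the T cell receptor alpha chain gene. Rag1 or Dntt, genes that act during receptor rearrangement in developing lymphocytes, were found in 16 of 20 and 46 of 48 cells with both Cd4 and CD8 transcripts, and in 6 of 53 and 16 of 54 gamma-delta cells. The sort was on CD45, yet 171 and 121 cells met the stromal gate, in which the CD45 gene Ptprc reached 76.7 and 65.1 CPM against 705 CPM or more in every lymphocyte gate. The lymphocyte gates also differed in depth between pools, with a median of 4916 against 4141 molecules per cell.

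Gzma and Gzmk are neighbours on chromosome 13 (GRCm38). Gzma lies at 113093825 to 113100981 and Gzmk at 113171608 to 113225908, both on the minus strand, and the 70.6 kb between them hold 3 annotated genes, of which 0 are protein coding. They are shown with Gzmb because these 3 granzymes were called different between NK cells and CD8 cells low in naive markers. The sequences are the 250 bases before the RefSeq transcript start (GRCm38.p6), written 5′ to 3′ on the strand of the gene. Capitals mark 2 motifs searched on both strands, the T-box motif GGTGTGA, read by Eomes and its relative T-bet, and the Runx core TGTGGT, which appears as ACCACA where it lies on the other strand.

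Gzma (chr13:113100982-113101231, minus strand): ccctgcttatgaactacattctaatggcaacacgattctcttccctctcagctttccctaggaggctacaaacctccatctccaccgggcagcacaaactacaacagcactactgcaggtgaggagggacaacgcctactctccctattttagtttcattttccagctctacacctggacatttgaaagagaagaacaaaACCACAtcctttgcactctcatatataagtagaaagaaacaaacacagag
Gzmk (chr13:113180966-113181215, minus strand): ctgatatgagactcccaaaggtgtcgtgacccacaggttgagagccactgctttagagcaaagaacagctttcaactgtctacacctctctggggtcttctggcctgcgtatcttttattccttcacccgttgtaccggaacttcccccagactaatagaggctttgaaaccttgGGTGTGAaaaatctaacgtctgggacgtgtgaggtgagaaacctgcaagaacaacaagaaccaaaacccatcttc
Gzmb (chr14:56262335-56262584, minus strand): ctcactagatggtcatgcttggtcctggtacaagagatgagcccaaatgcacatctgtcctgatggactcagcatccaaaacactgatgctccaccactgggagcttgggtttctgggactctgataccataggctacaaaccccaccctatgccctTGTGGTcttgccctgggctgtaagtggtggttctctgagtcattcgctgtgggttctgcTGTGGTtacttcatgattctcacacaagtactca

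The Gzmk window held 1 T-box motif, 75 to 69 bases before the start, and no Runx motif. This window lies inside the Gzmk span of 113171608 to 113225908, so its RefSeq start is not the outer end of that span. The Gzma window held 1 Runx motif, 50 to 45 bases before the start, and no T-box motif. Gzmb had 2 Runx motifs, 93 to 88 and 34 to 29 bases before the start. Promoter windows were held for 9 of the 10 genes, all but Ccl5. These made 10 windows, because Gzmm had 2, with the Runx motif in 1 and the T-box motif in the other. The RefSeq shares that follow count windows and not genes. The T-box motif was in windows of 3 of these 9 genes (Gzmk, Gzmm and Nkg7) and in 3.33% of 32851 RefSeq windows of the same length. The Runx motif was in windows of 5 (Gzma, Gzmb, Gzmm, Nkg7 and Prf1) and in 14.05% of all windows. A match to such short motifs describes the letters only.

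The other genes lie apart (GRCm38, GENCODE annotation). Gzmb is on chromosome 14 at 56258838 to 56262260, Ccl5 on chromosome 11 at 83525778 to 83530518 and Fasl on chromosome 1 at 161780689 to 161788495, all on the minus strand. On the plus strand, Prf1 (61297833 to 61304680), Gzmm (79689020 to 79695261) and Ifng (118441046 to 118445892) share chromosome 10, Nkg7 is on chromosome 7 at 43437073 to 43438249, and Eomes is on chromosome 9 at 118478212 to 118486132.

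Most molecules of these genes lay in the T and NK gates. For 9 of the 10 genes, all but Gzmm, the gates held 77.4% to 89.0% of the gene's molecules in the pool labelled wild-type and 62.6% to 87.5% in the pool labelled Saa3-/-. Summed over the 10 genes, NK cells reached 14536 and 9601 CPM, and CD8 cells low in naive markers 9746 and 9947 CPM. With the limit of 3 NK markers the NK sums were 15092 and 16888 CPM, so the order of the pools turned. CD8 cells with naive markers followed with 3152 and 2969 CPM, and CD4 cells low in naive markers with 1667 and 3954 CPM. Gamma-delta T cells, with 53 and 54 cells, held 347 and 284 CPM, and the myeloid cells, as background, 146 and 154 CPM. A median NK cell carried 7 and 6 of the 10 genes, and a median CD8 cell low in naive markers 5 and 4.

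**Figure D1:**
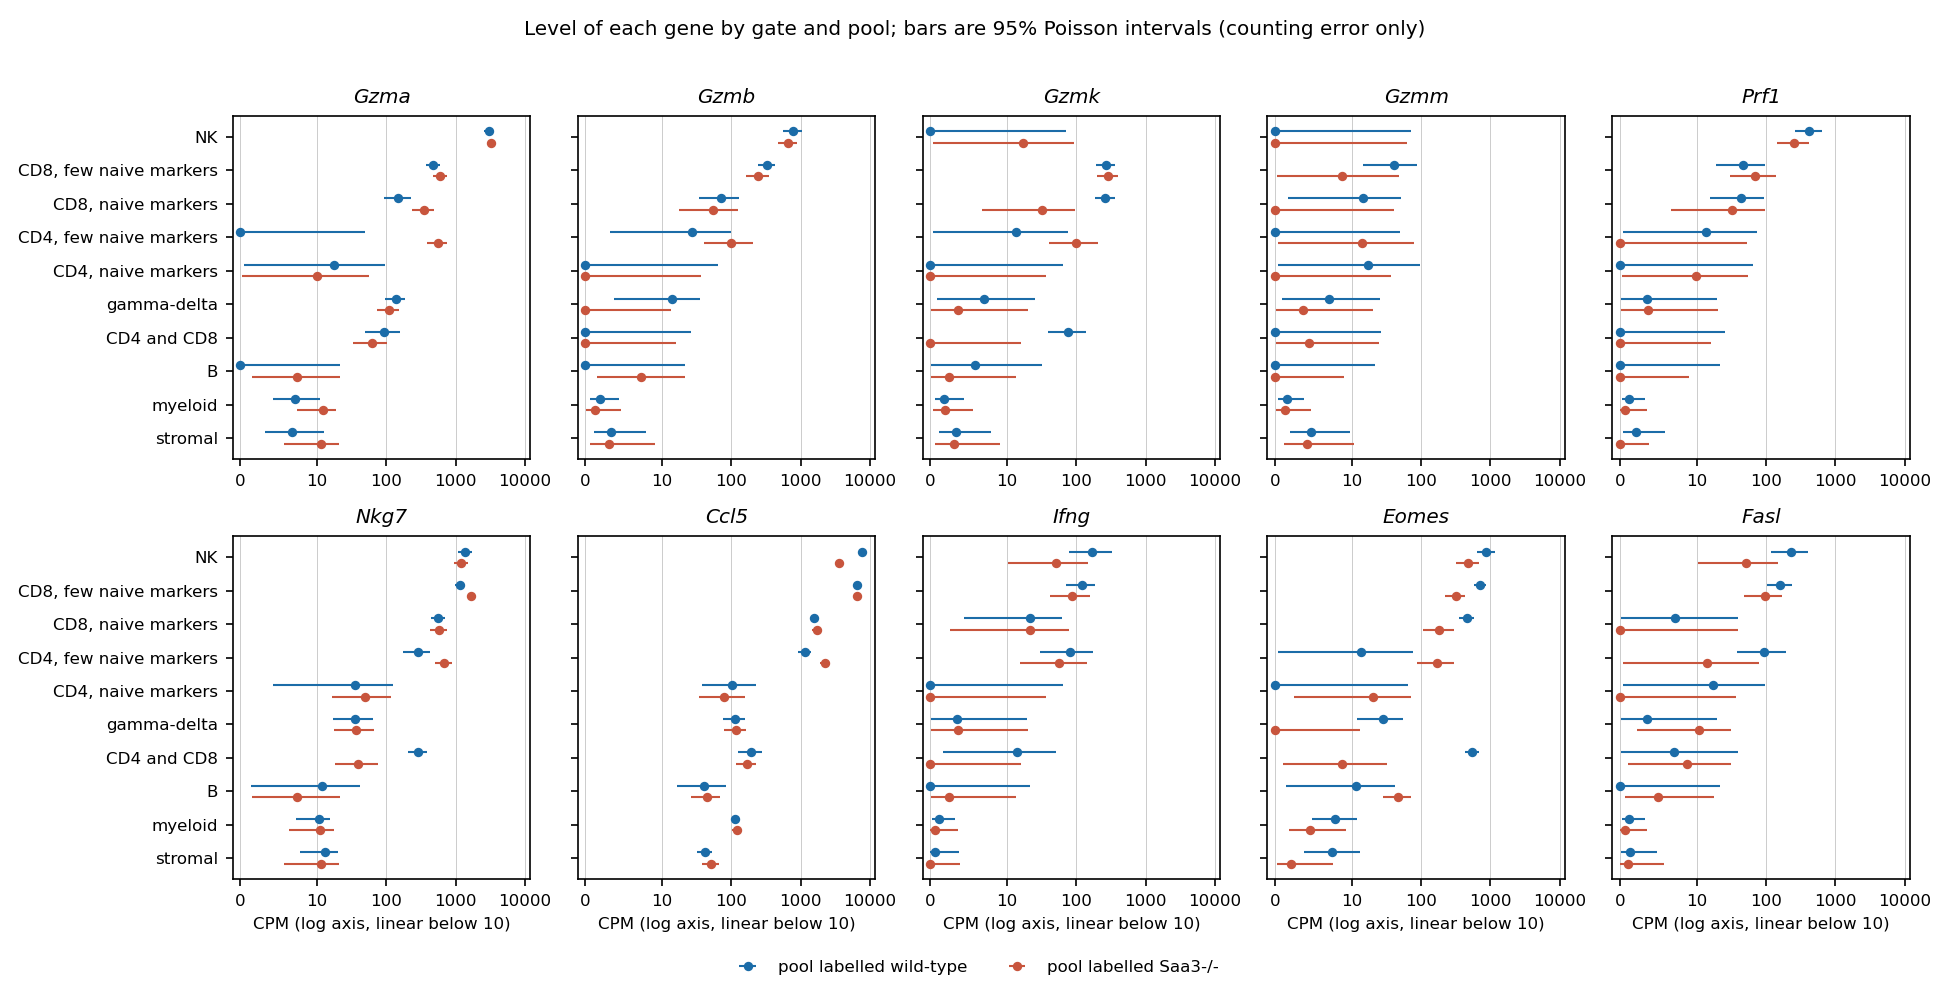
Level of each of the 10 genes (CPM, log axis that is linear below 10) by gate, for the pool labelled wild-type (blue) and the pool labelled Saa3-/- (red); points are summed levels and bars 95% Poisson intervals, which cover counting error only. Gzma was at 3044 and 3273 CPM in NK cells, Gzmk was at 265 and 287 CPM in CD8 cells low in naive markers with 0 and 1 molecule in NK cells, and gamma-delta cells were at 35.9 CPM or less for every gene but Gzma and Ccl5.

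Gzma and Gzmk, 2 granzymes with trypsin-like cutting, were highest in different gates, Gzma in NK cells and Gzmk in CD8 cells. Granzyme A was at 3044 CPM (2591 to 3554) in wild-type-labelled NK cells and at 3273 CPM (2829 to 3768) in Saa3-/- labelled ones. Transcripts were seen in 6 of 9 and 6 of 8 NK cells, with up to 49 and 68 molecules in a cell. With the limit of 3 NK markers the levels were 3464 and 5768 CPM. NK cells were thus the highest gate for Gzma in both pools, with intervals that did not overlap those of any other gate.

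In CD8 cells low in naive markers, Gzma was at 477 and 600.0 CPM, but 1 cell of each pool held nearly all of it. These cells held 68 of 72 and 61 of 69 molecules, and both also carried an NK marker, Gzmb and Eomes and no Gzmk. The log2 ratio of these CD8 cells over gamma-delta cells was 1.81 and 2.46 with them and -2.14 and -0.50 without them, a comparison added after the data were seen. It was -1.51 and -0.11 without the highest cell of both gates. NK cells over CD8 cells low in naive markers gave 2.67 (2.26 to 3.10) and 2.44 (2.04 to 2.87) for Gzma, and 6.24 and 5.09 without the highest cell of each gate.

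Granzyme K showed the opposite pattern. Gzmk was at 265 CPM (189 to 361) and 287 CPM (198 to 403) in CD8 cells low in naive markers, where 16 of 28 and 15 of 30 cells had at least 1 molecule and no cell more than 6. NK cells held 0 molecules, which allows up to 57.1 CPM, and 1 molecule (16.9 CPM). That 1 molecule was left out by the limit of 3 NK markers. NK cells were at least 4.64-fold lower than these CD8 cells in the pool labelled wild-type, and their log2 ratio was -3.52 (-9.43 to -1.51) in the other pool, from 1 molecule. Thinned to 2000 molecules per cell, so that all cells had the same depth, Gzmk was found in 35.7% and 36.7% of these CD8 cells against 0.513% or fewer of myeloid cells.

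In CD8 cells with naive markers Gzmk was less even. The pool labelled wild-type held 37 molecules in 3 of 17 cells, 26 of them in 1 cell, and the pool labelled Saa3-/- 3 molecules in 2 of 20 cells. Over all CD8 cells, Gzmk was in 19 of 45 and 17 of 50 cells and Gzma in 7 and 7, and both genes were found together in 3 and 3, so within CD8 cells they were not separate. No cell of the NK gate held both genes. The annotated span of Gzmk overlaps Esm1 on the other strand, and whether counting used the strand is not stated.

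**Figure D2:**
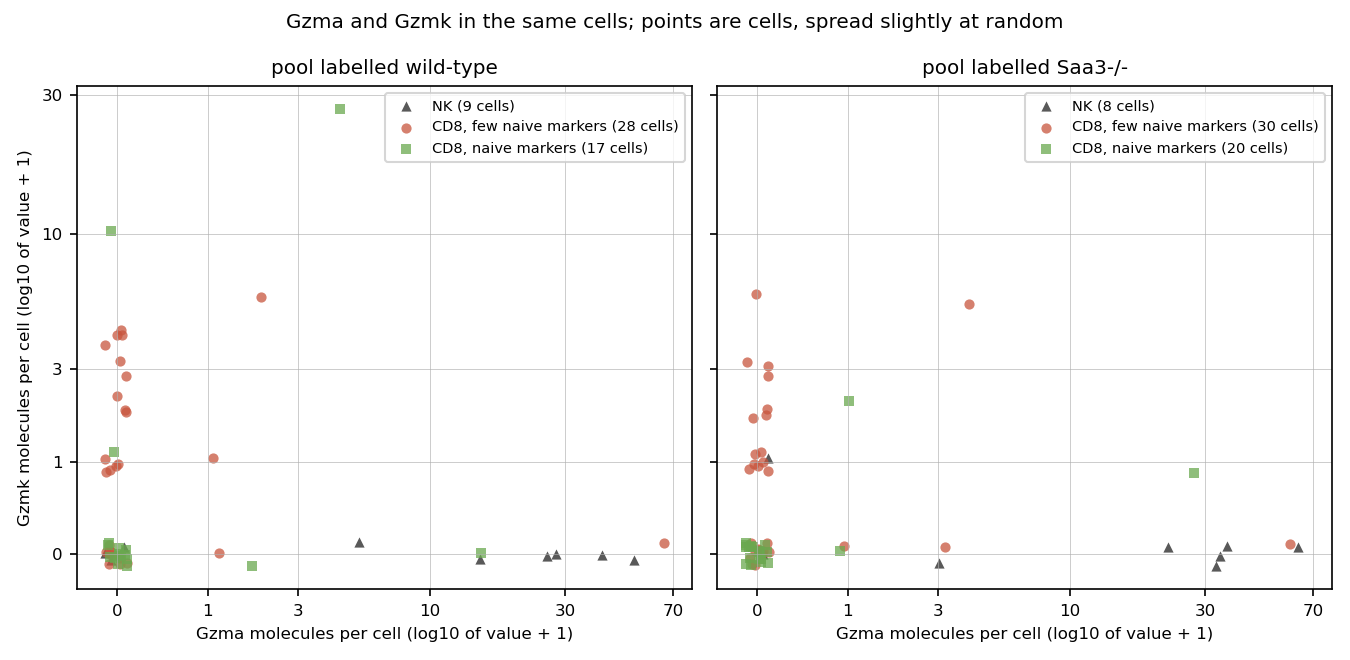
Molecules of Gzma (x axis) and Gzmk (y axis) per cell, both as log10 of the value plus 1 with ticks in molecules, for NK cells (triangles), CD8 cells low in naive markers (circles) and CD8 cells with naive markers (squares), 1 panel per pool; points are cells, moved slightly at random. NK cells lie along the lower edge with up to 68 Gzma molecules and at most 1 Gzmk molecule, and most CD8 cells with Gzmk lie along the left edge without Gzma.

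Gzmb, the granzyme that cleaves after aspartate and starts caspase-driven death, was shared by both populations. Its level was 780.1 and 658 CPM in NK cells, found in 7 of 9 and 6 of 8, and 325 and 243 CPM in CD8 cells low in naive markers, found in 9 of 28 and 6 of 30. The cell with the most Gzma in each pool held 25 of 49 and 14 of 28 of these Gzmb molecules, and without it the CD8 levels were 166 and 128 CPM. It was lower in CD8 cells with naive markers (71.0 and 54.0 CPM) and in gamma-delta cells (13.9 CPM, and 0 molecules, which allows up to 10.8 CPM). NK cells stood above CD8 cells low in naive markers by 1.27 (0.63 to 1.89) and 1.43 (0.70 to 2.19) on the log2 scale. With 1 NK marker molecule as the limit of the gate, the first of these was 0.61 and no longer past the limit of 1. NK levels of Gzmb were 888 and 1160 CPM with the limit of 3 NK markers. Background was 1.86 and 1.28 CPM in myeloid cells. In the NK gate, every cell with Gzma also held Gzmb, 6 of 6 in each pool.

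Prf1, the gene of perforin, was at 419 CPM (262 to 634) and 253 CPM (142 to 417) in NK cells. These levels were 476 and 446 CPM with the limit of 3 NK markers. CD8 cells low in naive markers held 46.4 and 69.6 CPM, from 7 and 8 molecules. NK cells were higher in both pools, by 3.11 (1.90 to 4.64) and 1.82 (0.53 to 3.31) on the log2 scale. Gamma-delta cells held 1 molecule in each pool, and cells with both Cd4 and CD8 transcripts 0.

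Gzmm, granzyme M, was near the limit of detection. The T and NK gates held 11 and 4 molecules, 42.3% and 28.6% of all Gzmm molecules, and NK cells held 0 in both pools, which allows up to 57.1 and 50.6 CPM. The other granzyme genes in the tables, Gzmc, Gzmf and Gzmn, gave at most 4 molecules each over the T and NK cells of a pool.

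Nkg7, a granule membrane protein needed for the release of granules, was spread over more cells than the granzymes. It was at 1370 and 1198 CPM in NK cells and at 1159 CPM (994 to 1345) and 1678 CPM (1450 to 1932) in CD8 cells low in naive markers, where 27 of 28 and 26 of 30 cells carried it. CD8 cells with naive markers held 554 and 572 CPM, and gamma-delta cells 34.7 and 35.9 CPM. B cells, which should lack it, were at 11.5 and 7.31 CPM. The log2 ratio of NK cells over CD8 cells low in naive markers was 0.25 (-0.18 to 0.64) and -0.48 (-0.90 to -0.09), and 0.43 and 0.34 with the limit of 3 NK markers.

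Ccl5, a chemokine that draws T cells and monocytes, was at 6447 CPM (6048 to 6865) and 6565 CPM (6105 to 7050) in CD8 cells low in naive markers and was found in 26 of 28 and 28 of 30 of them. NK cells held 7649 CPM (6919 to 8434) and 3628 CPM (3159 to 4146), and with the limit of 3 NK markers 7254 CPM (6498 to 8073) and 6392 CPM (5566 to 7306), so the lower NK level of the second pool rested on the 2 cells near the limit. CD4 cells low in naive markers were at 1143 and 2273 CPM, below CD8 cells with naive markers in one pool (1576 CPM) and above them in the other (1727 CPM). Gamma-delta cells held 111 and 115 CPM, beside myeloid cells at 112 and 120 CPM, of which single cells held up to 83 and 65 molecules. Ccr1, a receptor gene for it, was at 21.5 and 45.4 CPM in myeloid cells.

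Ifng, the gene of interferon gamma, was found as 51 and 22 molecules in the T and NK gates. CD8 cells low in naive markers held 119 CPM (70.7 to 188) and 87.0 CPM (41.7 to 160), from 9 of 28 and 7 of 30 cells. NK cells held 171 CPM (78.3 to 325) and 50.6 CPM (10.4 to 148), so these gates did not differ beyond counting error in either pool. NK levels of Ifng were 195 CPM (89.1 to 370) and 89.2 CPM (18.4 to 261) with the limit of 3 NK markers. Gamma-delta cells held 1 molecule in each pool. Of the 50-base stretches of Ifng transcripts, 19.9% are shared with the overlapping gene Gm49751. Reads could be split between them if Gm49751 was also in the annotation used for counting, which was not checked.

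Fasl, the gene of Fas ligand, followed the same order with 228 and 50.6 CPM in NK cells and 159 and 95.6 CPM in CD8 cells low in naive markers, the latter from 14 of 28 and 8 of 30 cells. The intervals of the 2 gates overlapped in both pools. NK levels of Fasl were 260 CPM (134 to 454) and 89.2 CPM (18.4 to 261) with the limit of 3 NK markers. CD4 cells low in naive markers held 7 molecules and 1 molecule, and gamma-delta cells 1 and 3. The receptor gene Fas was at 46.0 and 30.7 CPM in myeloid cells, 63.3 and 62.0 CPM in stromal cells and 13.3 and 26.1 CPM in the CD8 cells themselves.

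Eomes, a T-box transcription factor of memory CD8 and NK cells, was at 709 CPM (581 to 857) and 313 CPM (219 to 433) in CD8 cells low in naive markers. NK cells held 875 and 472 CPM, and CD8 cells with naive markers 454 CPM (350.0 to 580.3) and 184 CPM (107 to 294). The NK levels were 996 and 832 CPM with the limit of 3 NK markers. Gamma-delta cells held 27.8 CPM, 7 of 8 molecules in 1 cell, and 0 molecules, which allows up to 10.8 CPM. Of the CD8 cells with Gzmk, 18 of 19 and 11 of 17 also held Eomes, and over all CD8 cells Eomes was in 30 of 45 and 19 of 50. A share of 0.386% of the 50-base stretches of Eomes is shared with other genes, and Gm33460 overlaps it on the other strand.

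Across all features, the comparison of CD8 cells low in naive markers with gamma-delta cells took features with at least 20 molecules over both gates in each pool and called those with a log2 ratio of at least 1, a 2-fold difference, in both pools. In 3627 features, 2.98% were higher and 5.05% lower. Of the 10 genes, 6 had enough molecules (Gzma, Gzmb, Gzmk, Nkg7, Ccl5 and Eomes) and 6 were called higher. Most had these molecules through the CD8 gate alone, so the count describes them and no more, and the same holds for the counts of genes in the other comparisons of populations. Ccl5 had log2 ratios of 5.84 (5.35 to 6.41) and 5.81 (5.33 to 6.39), and Nkg7 of 5.00 and 5.48. Gzmb was higher by 4.39 in the pool labelled wild-type and at least 22.6-fold in the other, where gamma-delta cells held 0.

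The CD8 cells low in naive markers were also compared with other T cell gates. Over CD4 cells low in naive markers, 1.09% of 1838 features were called higher and 2.07% lower, and 4 of 6 genes with enough molecules were called higher, namely Gzmb, Gzmk, Nkg7 and Ccl5. Over CD8 cells with naive markers, 1.95% of 1995 features were called higher and 0.702% lower, and 3 of 6 genes were called higher, Gzmb, Nkg7 and Ccl5 with log2 ratios from 1.06 to 2.14. Over cells with both Cd4 and CD8 transcripts, 4.07% of 2924 features were called higher and 4.62% lower, and 5 of 6 genes were called higher. Eomes was the exception there with 0.37 (-0.06 to 0.82) in the pool labelled wild-type. CD4 cells low in naive markers stood above gamma-delta cells in 3.8% of 3212 features and below them in 4.67%, and above them for Nkg7 and Ccl5 of 3 genes with enough molecules.

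NK cells over CD8 cells low in naive markers were compared across features although the NK gate was under the limit of 15 cells, a choice made after the data were seen. Of 1625 features, 2.4% were called higher and 2.95% lower. Of 7 genes with enough molecules, Gzma, Gzmb and Prf1 were called higher and Gzmk lower, while Nkg7, Ccl5 and Eomes were not called, with log2 ratios from -0.85 to 0.60. With the limit of 3 NK markers, 4 genes were called, and in the pool labelled Saa3-/- the ratios were 3.26 for Gzma, 2.24 for Gzmb and 1.42 for Eomes. Thinned to 2000 molecules per cell, 2 of the 10 genes were called. Over gamma-delta cells, 3.33% of 3059 features were called higher in NK cells and 7.65% lower, and 5 of 5 genes with enough molecules were called higher, most of which had these molecules through the NK gate alone.

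Gzma in gamma-delta cells went with genes of developing lymphocytes. The gate held 39 and 30 Gzma molecules (135 and 108 CPM) in 6 of 53 and 9 of 54 cells. Of these, 38 and 29 lay in the 6 and 16 cells with a Rag1 or Dntt molecule, a level of 559 CPM (396 to 767) and 238 CPM (160 to 342). The other 47 and 38 gamma-delta cells held 1 molecule in all in each pool, 4.54 and 6.38 CPM, beside a myeloid background of 7.05 and 12.2 CPM. Cells with both Cd4 and CD8 transcripts held 13 and 14 Gzma molecules, with at most 3 in a cell, spread over 7 of 20 and 10 of 48 cells. Split the same way, they were at 89.1 and 58.9 CPM with Rag1 or Dntt. Those without these genes were at 103 and 119 CPM, from 2 molecules and 1 molecule in 4 and 2 cells. No gamma-delta cell with 5 or more Gzma molecules, 4 and 3 cells, held Gzmb, Gzmk, Eomes or an NK marker. This split was chosen after the data were seen, and its parts were not matched for depth. Without the gamma-delta cells with Rag1 or Dntt, CD8 cells low in naive markers exceeded gamma-delta cells in Gzma by 6.14 and 5.98 on the log2 scale. Those ratios rested on 1 CD8 cell of each pool, which held 68 of 72 and 61 of 69 Gzma molecules. The remaining CD8 cells low in naive markers held 4 and 8 Gzma molecules (27.7 and 72.9 CPM).

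**Figure D3:**
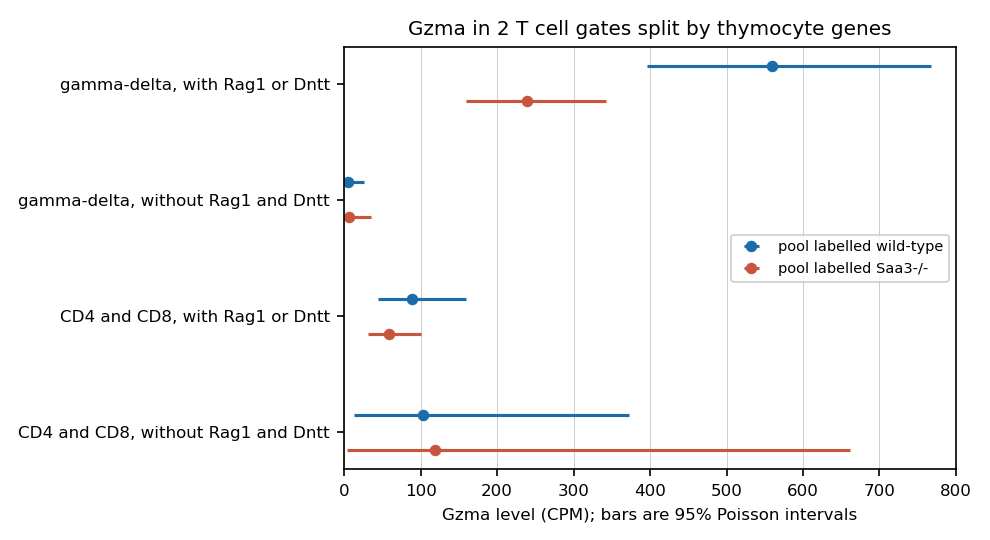
Gzma level (x axis, CPM) in gamma-delta cells and in cells with both Cd4 and CD8 transcripts, each split by whether the cell holds a Rag1 or Dntt molecule, for the pool labelled wild-type (blue) and the pool labelled Saa3-/- (red); bars are 95% Poisson intervals. Gamma-delta cells with these genes were at 559 and 238 CPM, and gamma-delta cells without them at 4.54 and 6.38 CPM. Cells with both Cd4 and CD8 transcripts were at 89.1 and 58.9 CPM with these genes. Without them they were at 103 and 119 CPM, from 4 and 2 cells.

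The machinery around the 10 genes was read from lists of related genes. Between gates, a gene was tested only with at least 20 molecules over both gates in each pool. A gene could reach that limit through the gate where it is high, so the counts describe the tested genes alone. Of all features in NK cells over CD8 cells low in naive markers, 2.4% were called higher and 2.95% lower. Of 4 listed inhibitors that shield the killer cell from its own granzymes, 2 were tested in this comparison. Both were called higher in NK cells, Serpinb9 (533 and 540 CPM against 225 and 157 CPM) and Serpinb6b (495 and 506 CPM against 59.6 and 34.8 CPM). Of 7 listed partners, 2 were tested, the chemokine genes Ccl4 and Xcl1. Both were higher as well, with log2 ratios from 1.85 to 2.77. The activating receptor Klrk1, 1 of 2 tested, and the receptor chain Il2rb, 1 of 1 tested, were also higher. Tox, a factor linked to lasting stimulation, was the only one of 6 tested transcription factors called, and it was lower in NK cells, with 95.1 and 0 CPM against 643 and 435 CPM. None of 4 tested genes of granule making and release was called.

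In CD8 cells low in naive markers over gamma-delta cells, 2.98% of all features were called higher and 5.05% lower. Of 6 tested genes of granule making and release, 1 was called higher there, the lysosomal protease Ctsw (398 and 322 CPM against 38.2 and 57.5 CPM). Tox and Hopx, 2 of 6 transcription factors, Ccl4, 1 of 2 partners, Itga4, 1 of 2 homing genes, and Serpinb9, 1 of 2 inhibitors, were higher too. Ltb, the receptor gene Il18r1 and Ifngr2 were lower in the CD8 cells. Srgn, the proteoglycan core of the granules, was at 1093 and 1235 CPM in the CD8 cells and 1337 and 966 CPM in gamma-delta cells, and it was not called.

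The question of what the Saa3 genotype does to these genes can be put only to the labels. Over all T and NK cells, 9 of the 10 genes had at least 20 molecules in both pools together, and 3 were called lower in the pool labelled Saa3-/-, Eomes, Ifng and Fasl. Among 9842 features, 3.21% were called higher and 2.72% lower. The median log2 ratio of the 9 genes was -0.57, and that of all features 0.03.

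Eomes had 328 molecules (270 CPM) in the pool labelled wild-type and 139 (115 CPM) in the pool labelled Saa3-/-, a log2 ratio of -1.23 (-1.53 to -0.94). Ifng had 51 and 22 molecules (42.0 and 18.2 CPM), a ratio of -1.19 (-2.00 to -0.46). Fasl had 59 and 28 (48.6 and 23.2 CPM), a ratio of -1.06 (-1.77 to -0.40). In each case the pool labelled wild-type was the higher one. Without the limit on markers of other lineages in the T and NK gates, none of the 3 was called, with ratios of -0.69, -0.70 and -0.62. Fasl was also under the limit with 1 CD3 molecule (-0.96) or 1 NK marker molecule (-0.95) as the limit of the gate. Eomes was also at -0.83 after thinning to 2000 molecules and at -0.88 without cells with Rag1 or Dntt. Of the Eomes molecules, 78 and 2 lay in the 20 and 48 cells with both Cd4 and CD8 transcripts. A single cell held up to 28 of those 78. The Eomes ratio without all of these cells was not computed.

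The other 6 genes with enough molecules were closer between pools, and Gzmm, with 11 and 4 molecules, was too low to be compared (-1.35, -3.56 to 0.30). Nkg7 was at 373 CPM in both pools (log2 ratio 0.00, -0.19 to 0.19). Ccl5 had a ratio of -0.18 (-0.27 to -0.09), Gzma of 0.28 (0.06 to 0.49), Gzmb of -0.35 (-0.77 to 0.06), Prf1 of -0.57 (-1.32 to 0.15) and Gzmk of -0.92 (-1.44 to -0.42). For Gzmk the ratio was -0.72 without the highest cell of each pool, -0.09 with each cell given equal weight and -0.08 after thinning. Fewer cells of a type and less RNA per cell cannot be told apart in such sums, and the makeup of the gates differed, with 20 against 48 cells holding both Cd4 and CD8 transcripts.

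**Figure D4:**
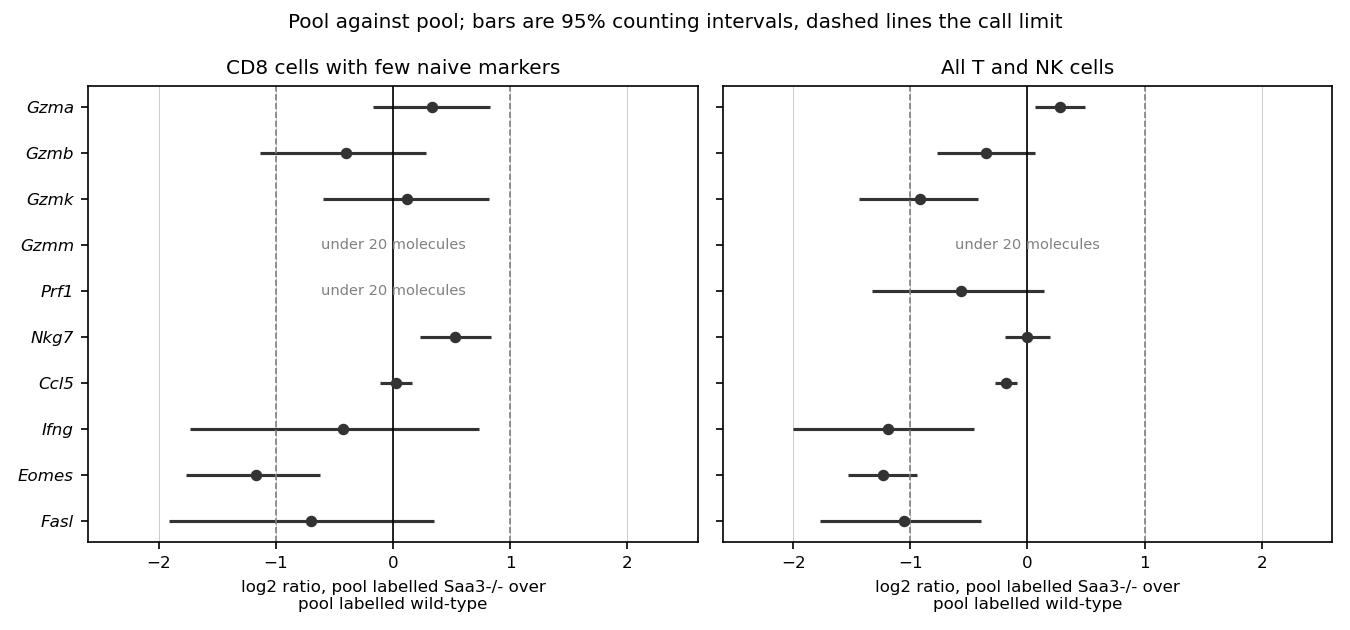
Difference between pools as a log2 ratio (x axis), where positive values are higher under the Saa3-/- label, for each of the 10 genes with at least 20 molecules, in CD8 cells low in naive markers (left) and in all T and NK cells (right); bars are 95% counting intervals and dashed lines the call limit of 1. Eomes lies at -1.17 and -1.23, while Ccl5 and Nkg7 lie between -0.18 and 0.53.

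Within CD8 cells low in naive markers, Eomes was the only one of 8 genes with enough molecules that was called, and it was lower in the pool labelled Saa3-/-. Among 2839 features, 4.79% were called higher and 6.02% lower. It had 107 molecules in 22 of 28 cells against 36 molecules in 13 of 30 cells, a log2 ratio of -1.17 (-1.77 to -0.62). Depth moved with this difference, with a median of 4984 against 3866 molecules per cell. After thinning to 2000 molecules the ratio was -0.44, and with 1 CD3 molecule as the limit for a T cell it was -0.86, so neither kept the call. After thinning, 14 of 28 cells (30.6% to 69.4%) and 11 of 30 cells (19.9% to 56.1%) held Eomes, and these intervals overlapped. Over all CD8 cells the ratio was -1.19, where 4.6% of features were called higher and 6.49% lower, and over all T cells -1.33, where 3.47% were called higher and 3.15% lower and Ifng was called as well (-1.11). Eomes was not lower under the Saa3-/- label in every gate. T cells of no subset held 24 and 42 molecules (0.997, 0.25 to 1.80), just under the call limit. CD4 cells low in naive markers held 1 and 12 (3.13, 0.90 to 9.07), too few for a call.

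Ccl5 had a ratio of 0.03 (-0.11 to 0.16) in these CD8 cells, Gzmk of 0.12 (-0.60 to 0.82), Gzma of 0.33 (-0.17 to 0.83), Gzmb of -0.40 (-1.14 to 0.28), Ifng of -0.42 (-1.73 to 0.74) and Fasl of -0.70 (-1.91 to 0.35). All 6 intervals held 0, and those of Gzmb, Ifng and Fasl also held a 2-fold difference. Without the highest Gzma cell of each pool the Gzma ratio was 1.31, from 4 and 8 molecules. Nkg7 was 0.53 (0.23 to 0.84) higher in the pool labelled Saa3-/-, under the call limit.

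Smaller gates gave larger ratios that rested on few cells. In CD8 cells with naive markers, where 5.92% of 2248 features were called higher and 11.8% lower, Gzma was higher (1.20), with 30 of 32 molecules in 1 cell, and Gzmk (-2.82) and Eomes (-1.28) lower in the pool labelled Saa3-/-. In CD4 cells low in naive markers, with 7.72% of 1555 features higher and 7.78% lower, Gzma went from 0 to 39 molecules, at least 13.7-fold higher, and 29 of the 39 lay in 1 cell. Nkg7 was higher there by 1.24 (0.50 to 2.08). In cells with both Cd4 and CD8 transcripts, with 9.11% of 4104 features higher and 5.29% lower, Eomes had 78 molecules in 4 of 20 cells against 2 molecules in 1 of 48, and Nkg7 41 against 9, of which 26 and 8 lay in 1 cell each. In NK cells, compared after the data were seen, 7.56% of 1072 features were called higher and 11.5% lower, and Ccl5 was lower under the Saa3-/- label (-1.07, -1.32 to -0.83). With the limit of 3 NK markers its ratio was -0.18 and the call was lost. None of 3 genes with enough molecules was called in gamma-delta cells (5.62% of 5211 features higher, 3.49% lower), and none of 5 in the T cells of no subset (7.69% of 5035 features higher, 8.14% lower).

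The related lists gave few calls between pools over all T and NK cells. Of 10 tested genes of granule making and release, Cst7 was lower (89 and 43 molecules, -1.03) and Unc13d higher (23 and 48, 1.05) in the pool labelled Saa3-/-. Of 6 homing genes, the chemokine receptor genes Cxcr6 (268 and 118 molecules, -1.17) and Cxcr3 (73 and 34, -1.08) were lower. Of 9 killer receptors, Klrg1 was lower (54 and 19 molecules, -1.48), and of 6 partners, Tnfsf10 (30 and 11, -1.40). None of 8 transcription factors, 6 cytokine receptors or 3 inhibitors was called. In CD8 cells low in naive markers, 3 of 7 granule genes (Cst7, Rab27a and Lyst) and 2 of 2 cytokine receptor genes (Il2rb and Il18r1) were lower, and Zeb2, 1 of 7 transcription factors, and Klrc1, 1 of 3 killer receptors, were higher in the pool labelled Saa3-/-.

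The genes whose profile was most like the mean of the 10, over 12 profiles of 6 T cell gates in 2 pools, were Sipa1, Ly9, Rnf138, Rac2, Pitpnc1, Adam19, Panx1 and Ms4a4b. Their Pearson correlations ran from 0.87 to 0.90 among 4671 genes with at least 100 molecules, as a description, since the profiles share libraries and depth. Ms4a4b was at 735 and 852 CPM in CD8 cells low in naive markers and at 41.7 and 25.1 CPM in gamma-delta cells, and Rac2 at 1113 and 948 CPM against 559 and 524 CPM.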

How the data were processed

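The deposited tables hold whole-number molecule counts per gene and cell, made by the authors with the BD Rhapsody WTA Analysis Pipeline 1.11.1 on GRCm38 with GENCODE M19 and intronic reads, per the file headers. R 4.3.1 and Seurat 4.3.0 are named in the submitters' processing notes. Gene positions, overlaps and shared stretches came from a later GENCODE release than the counts. How strand was counted is not given in the sources used here, and 4 samples of cultured macrophages were not analysed here. Cells with more than 25% mitochondrial molecules were removed (56 and 31). Counts were summed over the cells of a gate and divided by all molecules of those cells. A log2 ratio had 0.5 molecule added to each sum, and a call needed 20 molecules and a log2 ratio of 1, in both pools for populations. T and NK gates also needed each list of other-lineage markers under 0.5% of molecules, which left out 53 and 25 cells with CD3. Doublets were not called separately. A sum of 0 allows up to 3 molecules. Cells were thinned at random to 2000 molecules, and shallower cells left out. On simulated counts for CD8 over gamma-delta cells (26189 genes), 193 of 193 tested genes changed by log2 3 were recovered and 12 of 3418 unchanged genes called. The simulated sums were Poisson draws from a shared profile, without spread between cells or pools. Changed genes were picked among those with enough expected molecules. The result checks the calculation and gives no error rate for the calls in these data. Genes named beyond the 10 came from fixed pathway lists and from the 8 highest Pearson correlations with the genes' mean z-score of log2(CPM + 10). The 10 genes and the lists were chosen with earlier results of these data known. Python 3.11.15, numpy 2.4.6, pandas 2.3.3, scipy 1.17.1 and matplotlib 3.10.9 were used. Some items of the study are not reported here.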

Additional observations from a re-analysis of the deposited data

Results flagged for a closer look

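Nkg7 moved in opposite directions between pools in 2 T cell gates. The log2 ratio, positive where the Saa3-/- label is higher, was 1.24 in CD4 cells low in naive markers (21 and 48 molecules) and -2.81 in cells with both Cd4 and CD8 transcripts (41 and 9 molecules). With 1 pool per label, the difference between these gates was not tested.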

How the results depend on the processing

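No paired analysis was possible because each label has 1 pool of cells. Gzma in CD8 cells low in naive markers over gamma-delta cells turned from 1.81 and 2.46 to -1.51 and -0.11 without the highest cell of both gates, and to -2.14 and -0.50 without the 1 CD8 cell of each pool that held most of its molecules. For CD8 cells low in naive markers over gamma-delta cells, 291 features were called, against 133 after thinning, 538 with 10 and 113 with 50 molecules for a feature, and 95 at a log2 ratio of 2; of the 10 genes 6 were called, against 3 with 50 molecules. For NK over CD8 cells, 87 features were called, against 157 with 1 NK marker, 47 after thinning, 239 with 10 and 32 with 50 molecules, and 29 at a log2 ratio of 2; of the 10 genes 4 were called, against 2 after thinning, 2 with 50 molecules and 2 at a log2 ratio of 2. Between pools, CD8 cells low in naive markers gave 307 features, against 103 after thinning, 928 with 10 and 35 with 50 molecules, and 25 at a log2 ratio of 2. The 1 gene called there became 0 with 1 CD3 molecule, 2 with 3 CD3 molecules, 2 with each cell weighted equally, 0 after thinning, 3 without the highest cell and 0 at a log2 ratio of 2. All T and NK cells gave 584 features, against 1126 without the lineage limit, 1094 with 10 and 199 with 50 molecules, and 60 at a log2 ratio of 2, and the 3 genes called became 0 without the lineage limit and 0 at a log2 ratio of 2. Fewer features have 50 molecules or pass a log2 ratio of 2, and otherwise the cause was not tested. The small number of cells per gate limits all values, NK cells most.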
